A study of Mus musculus with 24 samples.

Results

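The 9 genes described here, taken by symbol and followed across 24 bulk RNA libraries, belong to the NF-kappaB pathway or act beside it. They are the transcription factor subunits Nfkb1, Nfkb2, Rela and Relb, the feedback inhibitors Nfkbia and Tnfaip3, the target genes Icam1 and Tnf, and Cebpb, a transcription factor of another family. These are 9 of 55401 genes in the files, and each was found under its symbol. Estimated counts were added over all transcripts of a gene.

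The libraries come from male C57BL/6 mice aged 11 weeks that had received propyzamide, a herbicide, or empty vehicle. Within each treatment, 4 libraries were unstimulated, 4 were taken 3 h after anti-CD3 and 4 were taken 24 h after anti-CD3, an antibody against the T cell receptor complex. The groups are therefore propyzamide unstimulated, vehicle unstimulated, propyzamide 3 h, vehicle 3 h, propyzamide 24 h and vehicle 24 h. The title speaks of T cells in an inflammatory bowel disease model, but neither the tissue nor any cell sort, route or dose is given in the sources used here. Nothing in the labels says whether the 4 libraries of a group came from separate mice, so p-values measure only the spread between these samples.

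NF-kappaB factors are dimers of Rel-family proteins. Nfkb1 and Nfkb2 encode the precursors p105 and p100, which are processed to DNA-binding subunits, while Rela and Relb encode subunits that carry activation domains. In resting cells the dimers are held in the cytoplasm by inhibitors such as IkB-alpha, the product of Nfkbia. Receptor signals, among them those of the T cell receptor, activate the IKK kinase, which marks IkB-alpha for destruction, and the freed dimers then switch on Nfkbia and Tnfaip3 among other genes. Tnfaip3 encodes A20, a ubiquitin-editing enzyme that dampens the signal upstream of IKK.

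Total counts were 438750 to 2072033 in 23 libraries and 9812458 in propyzamide 24 h replicate 3. Counts in named protein-coding genes were far fewer, 17818 to 160352 in the 23 libraries and 2935724 in the deepest. Propyzamide 3 h replicate 3 stood apart at the low end: it held 27 counts of Actb against 151 to 17120 in the others, and 0 counts of Tmsb4x against at least 18. The 8 T cell markers summed to 453.7 named CPM (counts per 1000000 counts of named protein-coding genes) over the 23 libraries, while 9 intestinal epithelial markers summed to 2547, 5 B cell markers to 1645 and 4 plasma cell markers to 1450. No marker of these lists was at 0 over the 23 libraries, and T cell markers were not the most abundant of these lists. The i5 index in the library names is the same for propyzamide unstimulated, vehicle unstimulated and vehicle 3 h and another for the remaining groups, and nothing in the labels calls it a batch. Where 2 compared groups differ in this index, index and stage or treatment cannot be told apart. In such bulk samples, fewer cells of a type and less RNA per cell cannot be told apart.

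By length-scaled level, Nfkbia was the most abundant of the 9 genes, with a median of 20.8 TPM over 24 libraries, a measure scaled to transcript length and to the library total. Tnfaip3 followed at 2.66 TPM and Icam1, which encodes the adhesion molecule ICAM-1, at 2.11 TPM. The 4 subunit genes lay close together, with Nfkb1 at 1.49, Relb at 1.45, Rela at 1.36 and Nfkb2 at 0.922 TPM. Tnf, which encodes the cytokine TNF, had a median of 0.526 TPM, and Cebpb a median of 0. Nfkbia exceeded Tnfaip3 in 23 libraries, and both were at 0 in propyzamide 3 h replicate 3. Further down the order was not fixed: Tnfaip3 exceeded Icam1 in 14 of 24 libraries, Nfkb1 exceeded Relb in 10, and Rela exceeded Nfkb2 in 11. In the deepest library Tnf, at 15.2 TPM, stood above all 4 subunit genes, the highest of which was Nfkb1 at 10.1 TPM.

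**Figure D1:**
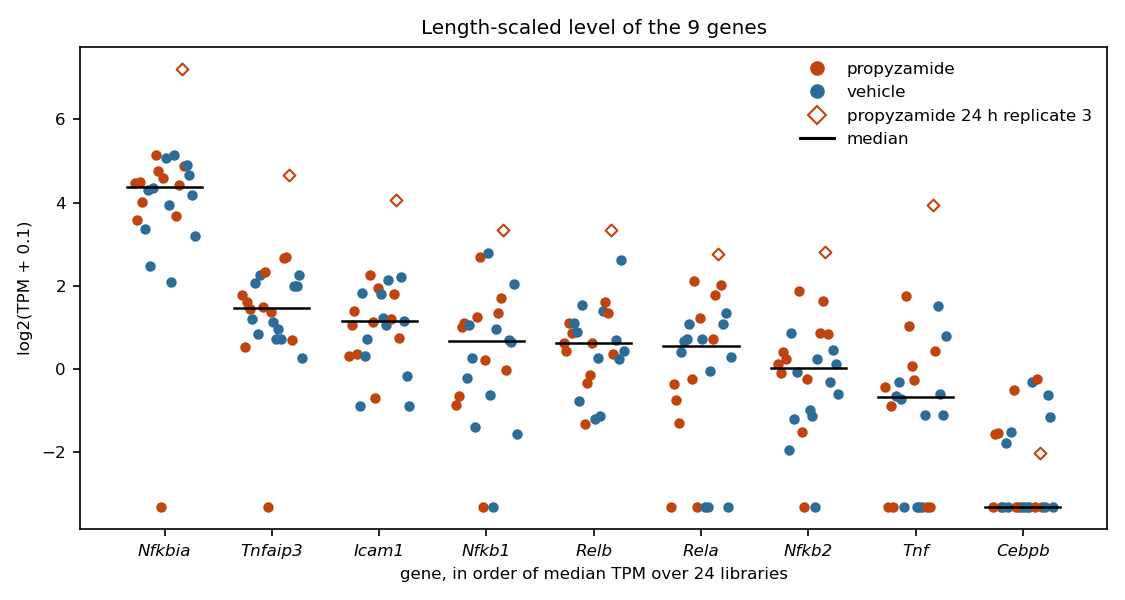
Level of the 9 genes as log2(TPM + 0.1) on the vertical axis, 1 point per library, genes ordered by median TPM (black line); points on the lowest line are libraries at 0. Nfkbia stands apart at a median of 20.8 TPM, and the 4 subunit genes overlap. In TPM the open diamond, propyzamide 24 h replicate 3, is the highest library for 8 of the 9 genes but not for Cebpb. Named protein-coding genes took 29.9% of the counts of that library, against 9.6% in propyzamide unstimulated replicate 3. In named CPM it was highest only for Tnfaip3, and Nfkbia was at 753.8 there against 1732 in vehicle 3 h replicate 4.

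Nfkbia is described first because its start region carries a single match to the kappaB consensus, the 10-base pattern that NF-kappaB dimers bind. The gene lies on the minus strand of chromosome 12 from base 55489410 to 55492647 (GRCm38). The 250 bases before its start, chr12:55492648-55492897, minus strand, are shown 5′ to 3′ from the RefSeq promoter table of build GRCm38.p6, with the match in capitals.
Nfkbia: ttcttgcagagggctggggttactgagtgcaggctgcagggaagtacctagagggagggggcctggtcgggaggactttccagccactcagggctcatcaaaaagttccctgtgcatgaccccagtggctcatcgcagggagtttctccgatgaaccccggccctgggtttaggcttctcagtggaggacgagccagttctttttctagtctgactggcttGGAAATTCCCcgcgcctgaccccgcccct
The match runs from -29 to -20 relative to the start and reads as the consensus on the opposite strand. A match occurs in 8.46% of 32851 windows of 300 bases in the table, so a single match describes this window and does not by itself show a binding site.

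Nfkbia had 180, 191 and 2315 counts in propyzamide libraries unstimulated, at 3 h and at 24 h, and 199, 166 and 201 in vehicle libraries at the same stages. In vehicle libraries its counts per 1000000, normalized by the TMM method (CPM), were 75.1, 46.3, 43.4 and 37.9 at 24 h, against 26.4, 36.8, 15.9 and 29.5 unstimulated. The groups did not overlap, with all 4 libraries at 24 h above all 4 unstimulated libraries. Of the 9 members, 1 was separated in this way in that comparison. How many of all genes were separated was not counted, for this or any later comparison. The summed counts were 2.03 times as high at 24 h (95% interval 1.66 to 2.48, counting error only), and edgeR gave a log2 fold change of 0.91 ± 0.57 (SE), adjusted p = 0.767. Of all 3799 genes tested, 0.421% were called in that comparison at an adjusted p of 0.05 or less, which is another measure than separation of the libraries. The 8 T cell markers summed to 32.1 to 56.8 CPM at 24 h, against 15.9 to 32.4 unstimulated, and the 9 epithelial markers to 10.3 to 30.7 at 24 h, against 158.2 to 207.2 unstimulated; their part in the result was not tested. The i5 library index also differed between these groups, so index and stimulation cannot be told apart there.

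At 3 h the vehicle libraries had 43.2, 34.9, 11.8 and 108.5 CPM of Nfkbia, and overlapped the unstimulated ones. The log2 fold change was 0.86 ± 0.57, and 0.15 without vehicle 3 h replicate 4, which held the highest level of all 24 libraries. With propyzamide, Nfkbia was at 62.0, 61.9, 0 and 56.5 CPM at 3 h, against 50.1, 33.3, 42.9 and 40.2 unstimulated. The 3 libraries with counts lay above all 4 unstimulated ones, and the library at 0 was the one that stood apart. At 24 h the propyzamide libraries had 26.0, 33.4, 69.1 and 50.9 CPM, overlapping the unstimulated group, with a log2 fold change of 0.15 ± 0.56. The share of all genes called was 0.711% at 3 h. Both anti-CD3 stages with propyzamide carry another library index than the unstimulated propyzamide libraries, so index and stage cannot be told apart there.

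Tnfaip3 had its lowest vehicle mean at 3 h, 15.3 ± 3.33 CPM (SD, n = 4). The gene lies on the minus strand of chromosome 10 (19000910 to 19015657), and its window 1 of 2 in the RefSeq table holds the kappaB consensus at 2 places, shown with 10 bases on each side (matches in capitals, minus strand).
Tnfaip3, -125 to -116: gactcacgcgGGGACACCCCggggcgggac
Tnfaip3, -12 to -3: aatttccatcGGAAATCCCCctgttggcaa
They lie within chr10:19015516-19015545 and chr10:19015403-19015432. Matches at 2 or more places occur in 1.22% of all windows. The other window of Tnfaip3 held no match.

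In vehicle libraries Tnfaip3 was at 30.7, 37.3, 33.1 and 15.5 CPM at 24 h, against 15.6, 17.5, 10.5 and 17.7 CPM at 3 h. At 24 h, 3 of the 4 libraries were above every library at 3 h, and the other overlapped them. The summed counts gave a ratio of 1.92 (1.37 to 2.71), the log2 fold change was 0.93 ± 0.53 and the adjusted p 0.472; 0% of genes were called there. The T cell markers summed to 32.1 to 56.8 CPM at 24 h, against 18.9 to 27.6 at 3 h, the B cell markers to 107 to 215, against 38.1 to 61.8, and the epithelial markers to 10.3 to 30.7, against 81.3 to 254; their part was not tested. The library index also differed, so index and stage cannot be told apart there. Unstimulated vehicle libraries ranged from 12.4 to 34.6 CPM and overlapped both stages. With propyzamide, the 24 h libraries had 32.6, 28.9, 51.6 and 13.5 CPM, against 23.4, 32.4, 0 and 18.1 CPM at 3 h, with a log2 fold change of 0.76 ± 0.51 and an adjusted p of 0.286. Without both libraries that stood apart, this fold change was 0.06. The deepest library held 74.3% of all Tnfaip3 counts, and its level in named CPM was 1.65 times that of the other 23 (1.496 to 1.81).

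Of the subunit genes, the windows of Nfkb2 and Rela were searched. Nfkb2 lies on the plus strand of chromosome 19 (46304320 to 46312385) and has 3 windows in the table, all with the consensus. Shown are 2 places of window 1, at -39 to -30 and -11 to -2, and the place shared by windows 2 and 3.
Nfkb2, chr19:46304688-46304717: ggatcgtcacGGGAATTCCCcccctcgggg
Nfkb2, chr19:46304716-46304745: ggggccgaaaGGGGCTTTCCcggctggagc
Nfkb2, chr19:46305695-46305724: tggtattttcGGGACTTTCCtaagcagcac
The first of these reads as the consensus on both strands, and a further match overlaps it by all but 1 base. Rela, Icam1, Tnf and Cebpb had no match in their windows, which says only that the pattern is not in those 300 bases. Windows for Nfkb1 and Relb were not used here.

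Nfkb2 was highest in the propyzamide libraries at 24 h, at 11.4, 15.4, 10.1 and 10.4 CPM, against 7.51, 7.47, 8.00 and 5.16 CPM in vehicle libraries at 24 h. The groups did not overlap in this CPM. In named CPM they did, since the deepest library was at 110.0 and vehicle 24 h replicate 3 at 114.4, and the ratio of summed counts was 1.075 (0.722 to 1.67). Per effective library size the ratio was 1.42 (0.954 to 2.21), or 1.75 (1.02 to 3.04) without the deepest library, and the log2 fold change was 0.72 ± 0.67 with an adjusted p of 0.684; 0% of genes were called. The unstimulated propyzamide libraries had 6.68, 6.30, 6.69 and 6.70 CPM, all below the 24 h propyzamide libraries, with a log2 fold change of 0.83 ± 0.66 and an adjusted p of 0.594; 0.079% of genes were called. The 8 T cell markers summed to 44.0 to 78.6 CPM in propyzamide libraries at 24 h, against 32.1 to 56.8 in vehicle libraries at 24 h and 23.4 to 34.2 in unstimulated propyzamide libraries, and their part in these results was not tested.

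Against 3 h, where the propyzamide libraries had 12.1, 1.47, 0 and 3.14 CPM of Nfkb2, the log2 fold change at 24 h was 1.28 ± 0.68 and the adjusted p 0.181. With DESeq2 the same comparison gave the smallest adjusted p of any member under any setting, 0.0587. DESeq2 called 1045 of 3799 genes there, with a median log2 fold change of 0.49 over all genes. The ratio of summed Nfkb2 counts was 1.89 (1.21 to 3.14) per effective library size and 1.21 (0.77 to 2.0) per named protein-coding count. With edgeR 15.3% of all genes were called in that comparison, 580 in number, and 58 without both libraries that stood apart. The T cell markers summed to 44.0 to 78.6 CPM in propyzamide libraries at 24 h, against 4.12 to 30.6 CPM at 3 h, and the 5 B cell markers to 141.7 to 277 CPM, against 8.23 to 72.2 CPM; neither list overlapped between the stages, and their part in any difference between these stages was not tested. The propyzamide libraries at 3 h and 24 h carry the same library index, while the unstimulated ones carry the other, so index and stage cannot be told apart in the comparison of 24 h with unstimulated.

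Relb, on the minus strand of chromosome 7 (19606217 to 19629438), partners with p52, the product of Nfkb2. It was at 9.77, 9.03, 11.0 and 3.12 CPM in propyzamide libraries at 24 h, against 0.805, 2.95, 4.12 and 5.50 CPM at 3 h. At 24 h, 3 of the 4 libraries were above all 4 at 3 h, and the other overlapped them. The T and B cell marker sums did not overlap between these stages, and their part in the Relb result was not tested. The log2 fold change was 1.35 ± 0.72 and the adjusted p 0.178, the lowest of any member in the edgeR fit. In vehicle libraries Relb averaged 6.38 ± 3.14 CPM unstimulated, 6.40 ± 6.13 at 3 h and 9.14 ± 6.48 at 24 h (SD, n = 4 each). These spreads overlap.

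Rela, on the plus strand of chromosome 19 (5637483 to 5648130), encodes p65, the main activating partner of p50. It was low in unstimulated propyzamide libraries, at 0, 3.60, 2.23 and 1.12 CPM, against 7.43, 6.58, 5.12 and 6.81 CPM in unstimulated vehicle libraries. The groups did not overlap, and the summed counts were 9 against 46, a ratio of 0.321 (0.138 to 0.663). Rela was below the count filter, and the fit with no filter gave a log2 fold change of -1.84 ± 0.82 with an adjusted p of 0.844; it called 0.0393% of 48342 genes. The epithelial markers summed to 96.3 to 752 CPM in these propyzamide libraries, against 158.2 to 207.2 in the vehicle libraries, and their part in the result was not tested.

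At 24 h the propyzamide libraries had 9.77, 5.42, 7.28 and 7.27 CPM of Rela, all above the unstimulated propyzamide libraries. The ratio of summed counts was 3.55 (1.84 to 7.86), and 3.46 without the deepest library, while the fit with no filter gave 1.94 ± 0.82 with an adjusted p of 0.770, where 0.0703% of genes were called. In vehicle libraries Rela was at 6.92, 0, 0 and 2.52 CPM at 3 h, and the library at 6.92 lay among the unstimulated ones. These comparisons share the unstimulated groups, so their directions are not independent.

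Nfkb1, on the minus strand of chromosome 3 (135584655 to 135691547), encodes the precursor of p50. Its group means ran from 4.80 to 5.80 CPM in 5 of the groups, with 9.28 ± 4.05 CPM in propyzamide libraries at 24 h and 5.26 ± 2.48 in vehicle libraries at 24 h (SD, n = 4 each). The summed counts of those 2 groups gave a ratio of 2.09 (1.34 to 3.46), and 1.60 (0.850 to 3.06) without the deepest library. Per named protein-coding count the ratio was 1.58 (1.01 to 2.62), and 1.44 (0.763 to 2.75) without the deepest library. The 4 propyzamide libraries, at 6.51, 13.6, 11.9 and 5.19 CPM, overlapped the vehicle libraries, which ranged from 1.72 to 7.47 CPM. The fit with no filter gave 1.02 ± 0.69 with an adjusted p of 0.810.

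**Figure D2:**
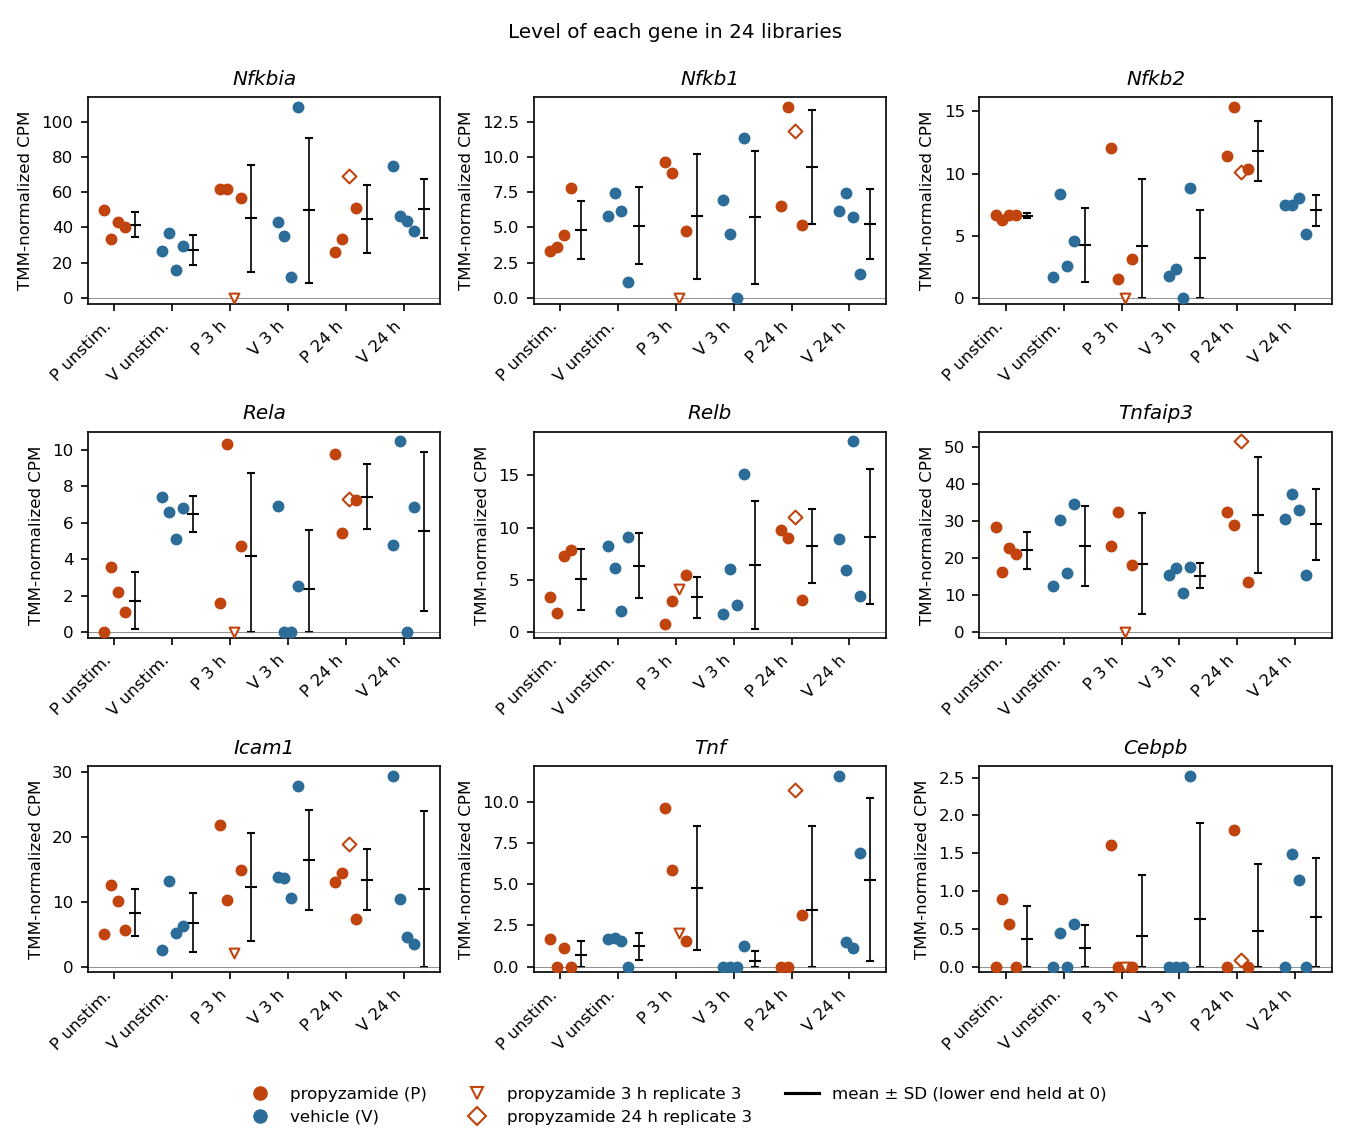
TMM-normalized CPM of each gene (vertical axes) in the 6 groups, with propyzamide (P, red) left of vehicle (V, blue) at each stage; each point is 1 library and the bars are mean ± SD of 4. The open triangle is propyzamide 3 h replicate 3, at 0 for Nfkbia, Tnfaip3, Nfkb1, Nfkb2, Rela and Cebpb, and the open diamond is the deepest library.

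Of the target genes, Icam1 had the only interval clear of 0 among the 5 genes that passed the count filter. The gene lies on the plus strand of chromosome 9 (21015985 to 21028817). In vehicle libraries it was at 13.8, 13.7, 10.5 and 27.8 CPM at 3 h, against 2.48, 13.2, 5.12 and 6.24 CPM unstimulated. Only the second unstimulated library overlapped the 3 h range. The log2 fold change was 1.23 ± 0.60 (95% interval 0.02 to 2.45, unadjusted p = 0.0458, adjusted p = 0.775), and 0.29% of all genes were called. Both groups carry the same library index. The 4 plasma cell markers summed to 40.8 to 71.9 CPM at 3 h, against 96.3 to 142.5 unstimulated. The 5 endothelial markers summed to 19.8 to 42.9 CPM, against 9.65 to 26.7, and the part of these lists in the result was not tested.

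With propyzamide, Icam1 was at 21.7, 10.3, 2.06 and 14.9 CPM at 3 h, against 5.01, 12.6, 10.03 and 5.59 unstimulated, and the log2 fold change was 0.60 ± 0.61. The lowest value at 3 h was that of the library that stood apart. The test of whether treatment changed the 3 h response (an interaction term) gave -0.64 ± 0.85 for Icam1, with an adjusted p of 0.998. Of the groups in that test, only propyzamide 3 h carries the other library index. Index and interaction cannot be told apart there, nor index and stage in the change with propyzamide. At 24 h the vehicle libraries had 29.4, 10.5, 4.57 and 3.44 CPM; without the first of them the log2 fold change against unstimulated, 0.88 with all libraries, was -0.23.

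Tnf is given with its start region because it was listed at or near 0 in most libraries and high in a few. It lies on the minus strand of chromosome 17 (35199381 to 35202007). The 250 bases before its start, chr17:35202008-35202257, minus strand, hold no kappaB match, and the capitals mark TATAAA, at -29 to -24, found on either strand in 13.6% of all windows.
Tnf: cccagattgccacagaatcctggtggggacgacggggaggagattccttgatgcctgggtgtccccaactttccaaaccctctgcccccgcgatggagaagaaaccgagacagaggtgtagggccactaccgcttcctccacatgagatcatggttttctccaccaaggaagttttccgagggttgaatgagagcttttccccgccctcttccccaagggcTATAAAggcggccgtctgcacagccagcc

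At 3 h Tnf had 12, 4, 1 and 2 counts in the propyzamide libraries, against 0, 0, 0 and 1 in the vehicle libraries. In CPM these were 9.66, 5.89, 2.06 and 1.57, against 0, 0, 0 and 1.26. The groups did not overlap, and the ratio of summed counts, 19 against 1, was 17.8 with a counting interval of 2.83 to 740. The fit with no filter gave 3.88 ± 1.35, unadjusted p = 0.00222 and adjusted p = 0.855, and it called 0.0248% of genes. The library index differed between these groups, and index and treatment cannot be told apart at 3 h. The 8 macrophage, monocyte and neutrophil markers summed to 10.3 to 156 CPM in the propyzamide libraries and 39.4 to 132 CPM in the vehicle libraries, and their part in the result was not tested.

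At 24 h Tnf had 0, 0, 344 and 3 counts in the propyzamide libraries, against 17, 1, 1 and 4 in the vehicle libraries. One library decided the direction: the ratio of summed counts was 1.56 (1.02 to 2.497) with the deepest library and 0.174 (0.0335 to 0.578) without it. Per named protein-coding count the ratio was 1.18 (0.775 to 1.89) with that library and 0.157 (0.0301 to 0.519) without it. Vehicle libraries had 23 counts at 24 h, against 9 unstimulated, a ratio of 5.13 (2.29 to 12.6), of which 17 came from replicate 1. The deepest library held 85.6% of all Tnf counts, and its level in named CPM was 3.38 times that of the other 23 (2.55 to 4.55).

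Cebpb encodes C/EBP-beta, a basic leucine zipper factor best known in myeloid cells and in the acute-phase response, where it acts with NF-kappaB at some promoters. It lies on the plus strand of chromosome 2 (167688915 to 167690418) and had 15 counts in all 24 libraries. Each of 5 groups had 2 counts, and propyzamide at 24 h had 5, of which 3 were in the deepest library. Counts were found in 10 libraries. The limit that a count of 0 allows, taken as 3 counts over a group, was 0.416 to 0.870 CPM outside propyzamide 24 h. The levels measured in those groups, 0.278 to 0.580 CPM, lay below it, so a fall or a small rise was not detectable at this depth. In the deepest library Cebpb was at 1.02 named CPM, against 7.17 in the other 23, a ratio of 0.143 (0.0258 to 0.528). For the other 8 genes this ratio was 1.18 to 3.38. Of the C/EBP family, 6 other genes were listed, and only 1 passed the filter; none was called in any comparison.

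Across all comparisons, 5 of the 9 genes passed the filter on low counts (Nfkbia, Nfkb2, Relb, Tnfaip3 and Icam1) and 4 did not (Nfkb1, Rela, Tnf and Cebpb). Of 55 fold changes of the 5 genes, over 9 pairwise comparisons and 2 interactions, edgeR called 0 at an adjusted p of 0.05 or less. An unadjusted p under 0.05 was found for 1 of them, Icam1 at 3 h with vehicle, where 237 of all 3799 genes had one. DESeq2 also called 0 of 55, with 4 at an unadjusted p under 0.05, all for 24 h against 3 h. For 24 h against 3 h, DESeq2 gave such a p to 552 of all 3799 genes with vehicle and to 1486 with propyzamide. Without a filter, 12 of 99 fold changes of all 9 genes had an unadjusted p under 0.05, among them 5 of Rela and 6 of Tnf, and 0 were called. Of all 48342 genes in the fit without a filter, 1883 to 4427 per comparison had an unadjusted p under 0.05. That fit called 0.118%, 0.132% and 0.0703% of all genes with vehicle at 3 h and 24 h against unstimulated and at 24 h against 3 h, 0.134% and 0.333% with propyzamide at 3 h against unstimulated and at 24 h against 3 h, and 0.132% for propyzamide against vehicle at 24 h. Where edgeR called 0 genes, unadjusted p-values under 0.05 numbered 462 at 24 h against 3 h with vehicle, and 128, 114 and 388 for propyzamide against vehicle unstimulated, at 3 h and at 24 h. The median log2 fold change of the 5 genes against unstimulated was 0.05 at 3 h and 0.68 at 24 h with vehicle, and -0.20 at 3 h and 0.68 at 24 h with propyzamide. The medians over all genes were -0.04, -0.03, -0.13 and 0.03 in the same order. These medians moved with single libraries, in fits that test 5 or 6 members: at 24 h to 0.39 without vehicle 24 h replicate 1, to 0.34 without vehicle unstimulated replicate 3 and to 0.45 without the deepest library. For propyzamide against vehicle no direction held when libraries were left out. The median was 0.30 unstimulated, and -0.09 without vehicle unstimulated replicate 1. It was -0.10 at 3 h, and 0.47 without propyzamide 3 h replicate 3; it was 0.11 at 24 h, and -0.21 without the deepest library. These comparisons share groups and are given side by side.

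**Figure D3:**
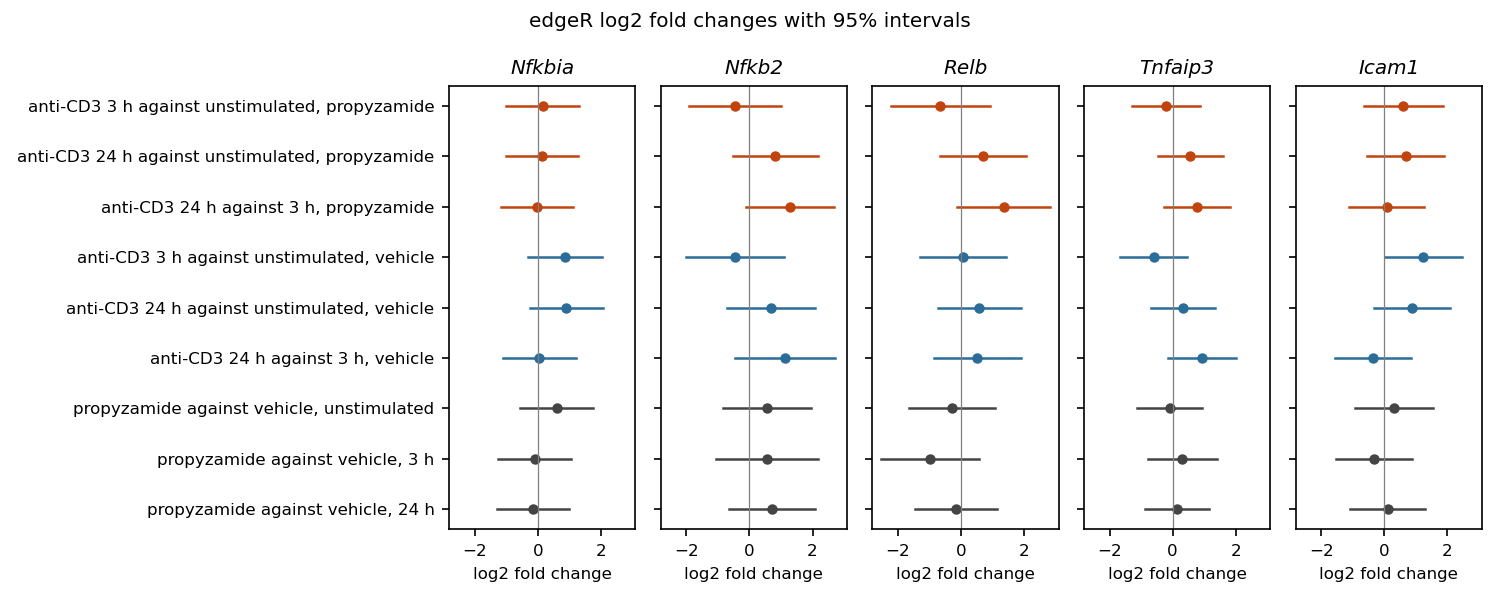
edgeR log2 fold changes (points, horizontal axes) with 95% intervals (lines) of the 5 genes that passed the filter, for 9 comparisons (vertical axis), red for anti-CD3 comparisons with propyzamide, blue with vehicle and grey for propyzamide against vehicle. Each interval includes 0 except that of Icam1 at 3 h against unstimulated with vehicle, 0.02 to 2.45.

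The precision sets what these intervals can show. The common dispersion of 0.215 corresponds to a variation between libraries of 46.4% around the mean, beyond counting error, which adds to it at low counts. Nfkbia at 24 h with propyzamide against vehicle, at a log2 fold change of -0.16, had a 95% interval from -1.30 to 0.98, so changes of up to about that size in either direction were not detectable. For Relb at 3 h, propyzamide against vehicle gave -0.98, with an interval from -2.54 to 0.57.

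The 3 interaction results that were largest among genes below the filter concerned Tnf and Rela. For Tnf at 3 h the interaction of propyzamide and anti-CD3 was 4.85 ± 1.86, for Rela at 3 h it was 2.99 ± 1.24 and for Rela at 24 h 2.47 ± 1.11, with adjusted p-values of 0.9998, 0.9998 and 0.927. None passed the threshold, and 0.0434% and 0.0414% of genes were called at 3 h and 24 h in the fit with no filter. At 3 h the library index of the propyzamide libraries differs from that of the other groups in the test. Index and interaction cannot be told apart there.

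The annotated transcript classes that received the counts differed between the genes. Nfkb1 had 64.3% of its estimated counts on 4 retained-intron transcripts and 12.5% on 3 protein-coding ones. Among 6179 named genes with such a transcript and at least 100 counts, 10.1% had a larger retained-intron share, and the median share was 17.4%. Without the deepest library the Nfkb1 share was 51.5%, and 27.0% of the 2560 genes that then had 100 counts exceeded it (upper quartile 54.7%). Over all 24 libraries the single transcript with most counts was Nfkb1-202, a retained-intron transcript of 2520 bases, with 34.3%. Without the deepest library it had 20.5%, and Nfkb1-207, annotated as a target of nonsense-mediated decay, had 22.5%.

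Relb had 37.3% on retained-intron transcripts, or 19.8% without the deepest library. Nfkbia had 24.0%, all on Nfkbia-202 of 701 bases, while 76.0% fell on the protein-coding Nfkbia-201. Icam1 had 14.9%, or 21.8% without the deepest library, and Nfkb2 had 8.9%, or 20.7% without it. Tnfaip3 had 7.9% and Rela 5.2%. Tnf and Cebpb have only protein-coding transcripts in the annotation used. The estimated counts of Nfkb1 were thus for the most part assigned to annotated transcripts other than its protein-coding ones. These shares are estimates of assignment, and which RNA the reads came from was not tested. The kit is not stated to keep strand, and Nfkb1, Nfkb2, Icam1 and Cebpb overlap other annotated genes, so reads of the overlaps could belong to either gene.

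**Figure D4:**
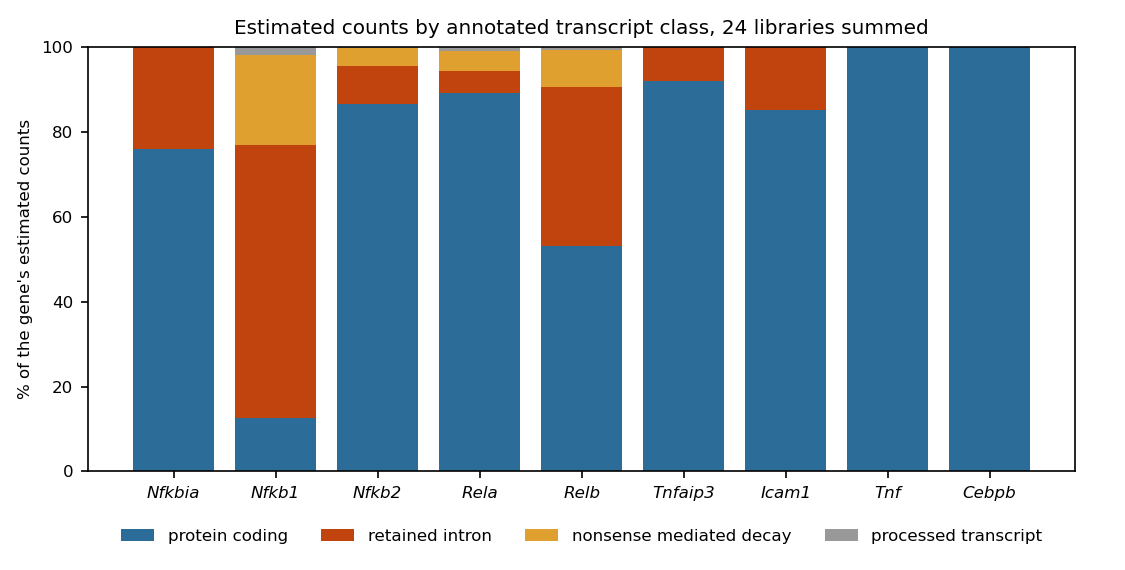
Share of each gene's estimated counts (vertical axis, percent) by annotated transcript class, 24 libraries summed. Nfkb1 is the only one of the 9 genes with most of its counts, 64.3%, on retained-intron transcripts.

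The rest of the pathway was followed through 6 lists chosen with earlier results of these data known. Of 6 other subunit and IkB genes, 2 were tested and 0 called; Rel, which encodes c-Rel, was at 16.8 ± 5.61 CPM in propyzamide libraries and 15.9 ± 5.16 CPM in vehicle libraries at 24 h (SD, n = 4 each). Of 19 genes of the IKK complex and its adaptors, 4 were tested, and Ikbkb, which encodes the kinase IKK-beta, was called once. It was at 24.4, 35.2, 18.6 and 26.0 CPM in propyzamide libraries at 24 h, against 5.64, 8.84, 2.06 and 5.50 CPM at 3 h, and rose by a log2 fold change of 2.18 ± 0.58 (adjusted p = 0.0202). All 4 libraries at 24 h were above all 4 at 3 h. It was not called with no filter (adjusted p = 0.0719), with named genes only (0.0625), without both libraries that stood apart (2.17 ± 0.63, adjusted p = 0.0602) or in 4 of the 8 fits that left out 1 library. Of 13 other feedback regulators, 4 were tested and 1 called: Tax1bp1, an adaptor of A20, rose in the same comparison by 1.72 ± 0.56 (adjusted p = 0.0388), where 15.3% of genes were called. It was not called with no filter (adjusted p = 0.175), with named genes only (0.158), without both libraries that stood apart (1.35 ± 0.62, adjusted p = 0.189) or in 6 of the 8 fits that left out 1 library. The T cell markers, at 44.0 to 78.6 CPM in propyzamide libraries at 24 h, against 4.12 to 30.6 at 3 h, moved with both genes, and their part in these calls was not tested. Of 11 TNF family ligands and receptors, 4 were tested and 0 called.

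Of 26 other NF-kappaB target genes, 10 were tested. Cxcl10, which encodes a chemokine for activated T cells, rose at 3 h with vehicle, at 19.0, 6.84, 0 and 18.9 CPM against 0.826, 0, 0 and 0 unstimulated, by 5.80 ± 1.39 (adjusted p = 0.0375), a size that rests on 35 counts against 1. It also rose at 24 h with vehicle, by 5.58 ± 1.40 (adjusted p = 0.0420). The call at 3 h was lost in 6 of the 8 fits that left out 1 library (adjusted p 0.00531 to 0.199), and the call at 24 h in all 8 (0.0523 to 0.165). With propyzamide Cxcl10 had log2 fold changes of 3.56 ± 1.19 at 3 h and 2.71 ± 1.21 at 24 h, with adjusted p-values of 0.155 and 0.296. Cxcl10 is also an interferon-inducible gene, as is Irf1, whose log2 fold changes in the 4 comparisons with unstimulated libraries were 1.46 to 1.78 with adjusted p-values of 0.0895 to 0.319. In the same 4 comparisons, the fold changes of the 5 tested members did not pass the test. Lcn2, which encodes lipocalin 2, was below the filter. The fit with no filter called it higher at 24 h than unstimulated with propyzamide, by 4.28 ± 1.04 (adjusted p = 0.0311), at 3.26, 1.81, 22.4 and 2.08 CPM against 1.67, 0, 0.557 and 0. The highest of these was the deepest library, and 0.0703% of genes were called in that fit.

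By correlation of log2 CPM over the 24 libraries, the genes most like Nfkbia were Junb (r = 0.92), Litaf (r = 0.92) and Fth1 (r = 0.91). Without the deepest and the shallowest library these values were 0.65, 0.78 and 0.78. Tnfaip3 was most like Rpl7, Tmsb4x and H2-Ab1, each at r = 0.91, and at 0.53, 0.55 and 0.64 without those 2 libraries. Nfkb2 was most like Cyp4f18 (0.89, and 0.85 without them). These correlations are descriptions over libraries that differ in depth. Relb and Icam1 had no gene above 0.73. Between members, over all 24 libraries, Nfkbia and Tnfaip3 had r = 0.85, while Relb had at most 0.32 with any other of the 5. In the shallowest library Nfkbia and Tnfaip3 were both at 0 and Relb had 2 counts. The pairs of members were not correlated without that library or the deepest, so the part of these libraries was not tested.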

How the data were processed

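SMART-seq2 was the library protocol per the labels, and reads were quantified with kallisto on GRCm38 per the submitters' processing notes, with no version stated. Per the file headers, each of 142604 transcripts has an expected count, as the authors deposited it with no scaling to depth. They also give TPM, per the file headers, and the authors deposited transcript lengths in bases, of unit class other. Expected counts were summed to genes and rounded; levels are CPM over TMM effective library sizes, and TPM were summed to genes.

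Counts were tested with edgeR 4.0.16 (R 4.3.3): filterByExpr, TMM, 1 coefficient per group over all 24 libraries, quasi-likelihood F test, Benjamini-Hochberg over the 3799 genes tested, called at 0.05. All p-values are two-sided, and the scripts were tested on simulated data. Group sums carry exact 95% intervals, for counting error alone; without molecular identifiers, reads are not independent molecules. Replicates carry no number in the labels, so none were paired. The members and lists were chosen with earlier results of these data known. The text names the 9 members, list genes that were called or among the 3 smallest p-values, and the 3 genes most like each tested member. Settings tried were RLE, no filter, DESeq2 1.42.0, named protein-coding genes only and leaving out each library (24 fits), and, chosen after seeing the data, leaving out both libraries that stood apart. The kappaB consensus was searched on both strands of RefSeq windows (250 bases before to 50 after a start).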

Additional observations from a re-analysis of the deposited data

Results flagged for a closer look

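Of 43 member and group combinations with at least 10 counts, 2 held a library far from the other 3 of its group, and chance flags about 1 in 20. Nfkbia was at 0 CPM in propyzamide 3 h replicate 3, where the other 3 libraries had 56.5, 61.9 and 62.0 CPM. That library also had 0 counts of Tmsb4x and 4 of Eef1a1. Nfkb2 was at 6.30 CPM in propyzamide unstimulated replicate 2, where the other 3 libraries lay between 6.68 and 6.70 CPM; the 4 values rest on 4, 7, 12 and 6 counts.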

How the results depend on the processing

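No member was called in any of the 11 comparisons under any of the 29 settings besides the reported one. Of 775 refitted member fold changes, 92 had the other sign, over 27 of 55 fold changes, and 20 moved by more than 1 standard error; the lowest adjusted p was 0.0587, and 0.378 for genes below the filter. No paired analysis was possible because replicates carry no number in the labels. The counts of all called genes moved more. For 3 h against unstimulated with vehicle, 11 genes became 34 with DESeq2, 21 with named genes only and 57 without a filter, and 4 to 10 on leaving out 1 library. For 24 h against unstimulated with vehicle, 16 became 34 (DESeq2), 5 (RLE), 33 (named) and 64 (no filter), and 1 to 8. For 24 h against 3 h with vehicle, 0 became 73, 2 (RLE), 15 and 34, and 0 to 2. With propyzamide, 27 genes at 3 h against unstimulated became 78, 53 (RLE), 15 and 65, and 0 to 32; 3 genes at 24 h against unstimulated became 71, 8, 5 and 34, 39 without both libraries that stood apart, and 0 to 22; and 580 genes at 24 h against 3 h became 1045, 891, 127 and 161, 58 without both libraries, and 99 to 805. For propyzamide against vehicle, 0 became 1 (DESeq2) and 19 (no filter) unstimulated, 12 (no filter) at 3 h, and 3 (DESeq2), 64 (no filter) and 1 (without both libraries) at 24 h, with 0 in each fit that left out 1 library. For the interactions, 0 became 21 (no filter) at 3 h, and 2 (DESeq2) and 20 (no filter) at 24 h, with 0 to 1 on leaving out 1 library. Fits that leave out a library test more genes (3893 to 4623 against 3799); the cause of the other moves was not tested. Ratios of summed counts at 24 h with propyzamide depend on the denominator: for Nfkbia against vehicle, 1.19 per effective library size, 0.902 per named protein-coding count and 0.679 without the deepest library.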
